A study of Mus musculus with 6 samples.

Results

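The genes described here are 8 of the 20950 entries of the expression table and were chosen by symbol for their part in the handling of organic osmolytes. They comprise the osmolyte transporters Slc5a3 and Slc6a6, the aldose reductase genes Akr1b3, Akr1b7 and Akr1b8, the tonicity-responsive transcription factor Nfat5, the kinase Sgk1 and the water channel Aqp1. Every symbol was found exactly 1 time in the table. All were measured in C2C12 cells, an established mouse myoblast line whose cells fuse to myotubes in low serum. The study asked how exosomes isolated from fetal bovine serum (FBS) with commercial precipitation kits act on this differentiation. Polyadenylated RNA was sequenced in 6 libraries of 5 conditions.

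Growing cells were kept in 10% FBS (1 library). Differentiating cells were grown in the same way and then moved to 2% horse serum (2% HS, 1 library) or to 0.2% FBS (1 library). Exosomes were added to the differentiation medium in the amount held by 10% FBS, giving 2% HS + exosome (1 library) and 0.2% FBS + exosome (2 libraries, replicates 1 and 2). All samples came from this single line without genetic change, so the data describe this line and not muscle tissue. The labels do not say whether the replicates were separate cultures or received separate exosome preparations. The paper names more than 1 FBS lot, exosome preparation and isolation kit, without assigning them to libraries. The spread between the replicates may thus be technical or go with the preparation, and its source was not tested. The medium of 10% FBS itself contains FBS exosomes. No library is labelled as a control with the elution buffer or kit reagents alone, so their effect and that of the exosomes cannot be told apart.

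Cells raise their content of small organic molecules, called compatible osmolytes, when the fluid around them becomes hypertonic. Sodium-coupled carriers bring in myo-inositol and taurine, aldose reductase makes sorbitol from glucose, and the transcription factor NFAT5 (also named TonEBP) switches on the genes for these steps. Skeletal muscle is rich in taurine, which Slc6a6 carries, and myo-inositol taken up through Slc5a3 also feeds the synthesis of phosphoinositides.

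Values are FPKM, read counts scaled to transcript length and to the depth of the library, so levels can be set side by side between genes of different length. Changes are differences of log2(FPKM + 1), which understate the change of genes near or below 1 FPKM. A gene was called past the fold when this difference exceeded 1 or fell below -1, in both libraries where 2 existed. The depth estimated from the spacing of low values was between 33700000 and 39100000 reads per library. Of the table, 10731 entries had a mean of at least 1 FPKM and formed the background. All 8 genes reached this mean, but Akr1b7 did so only through its level in the library of 2% HS + exosome. Muscle markers were present (7 of 7 reached 1 FPKM). None of 5 endothelial markers did, and their summed level was 0.110 to 0.284 FPKM. The summed level of 4 red cell markers was at most 0.133 FPKM, that of 4 epithelial markers at most 0.894 FPKM, and that of 4 kidney tubule markers at most 0.249 FPKM. Of 3 leukocyte markers in the table, Cd68 alone reached 1 FPKM (1.19 to 2.00 FPKM), and Ptprc was at 0 in 4 libraries.

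Slc5a3 is annotated together with Mrps6, a mitochondrial ribosomal protein gene on the same strand. In GENCODE vM21 on mm10, Slc5a3 (ENSMUSG00000089774.2) spans chr16:92058322-92087473 on the plus strand and Mrps6 spans chr16:92058270-92112227. Their exon 1 ends at the same base and 159 exonic bases belong to both genes. The coding sequence of Slc5a3 (2154 bases) lies in 1 exon, chr16:92077057-92079210, inside intron 1 of Mrps6. The sequence is shown because a single start region serves both genes, whose levels are compared further on. It holds the 250 bases before the RefSeq start of Slc5a3 and the 14 bases, in capitals, between that start and the RefSeq start of Mrps6 (chr16:92058072-92058335, plus strand, GRCm38.p6, from RefSeq).
Slc5a3 upstream: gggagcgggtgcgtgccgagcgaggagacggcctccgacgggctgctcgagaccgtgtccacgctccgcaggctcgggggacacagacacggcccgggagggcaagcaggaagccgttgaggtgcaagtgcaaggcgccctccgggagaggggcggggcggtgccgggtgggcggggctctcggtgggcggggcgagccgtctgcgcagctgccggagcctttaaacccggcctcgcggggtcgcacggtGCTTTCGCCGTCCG

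**Figure D1:**
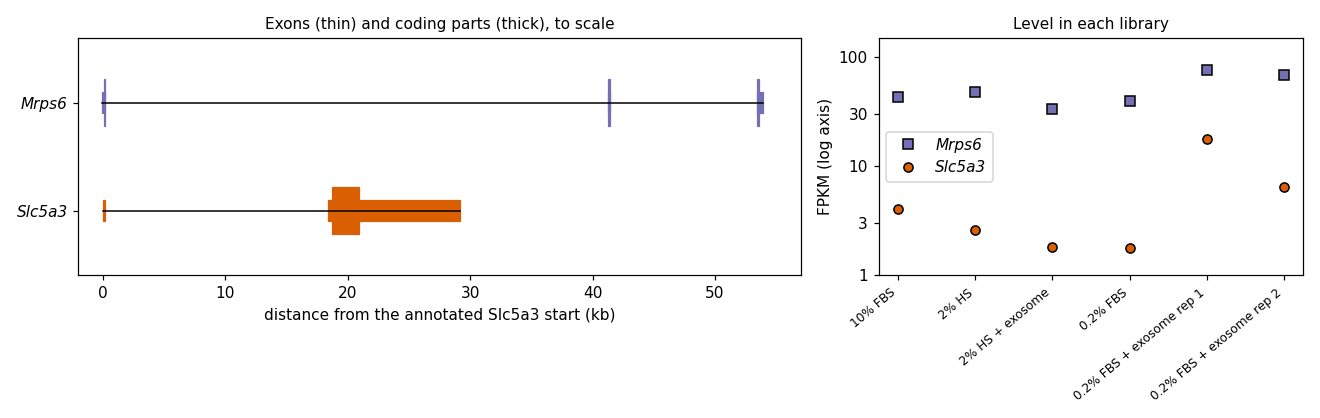
Left, exons and coding parts of Mrps6 and Slc5a3 against the distance in kb from the annotated start of Slc5a3. Right, FPKM on a log axis in each of the 6 libraries, with Mrps6 as squares and Slc5a3 as circles. Both genes were highest in 0.2% FBS + exosome replicate 1, at 76.1 and 17.7 FPKM.

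The myo-inositol carrier Slc5a3 showed the largest change among the 8 genes with exosomes in 0.2% FBS. Its level was 1.80 FPKM in 0.2% FBS, 17.7 FPKM in 0.2% FBS + exosome replicate 1 and 6.44 FPKM in replicate 2. It was 4.08 FPKM in 10% FBS, 2.61 FPKM in 2% HS and 1.83 FPKM in 2% HS + exosome. Both 0.2% FBS + exosome libraries thus lay above the other 4 libraries, and the 2 lay far from each other. The FPKM of Slc5a3 was 9.85-fold higher in replicate 1 and 3.59-fold higher in replicate 2 than in 0.2% FBS. Its mean change of log2(FPKM + 1) was 2.08 ± 0.94 (SD, n = 2), which understates these ratios. Slc5a3 was the only member higher past the fold in both libraries, against 0.895% of the background genes, and ranked 7 of 10731 from the highest change. The SE and p of limma draw on a spread pooled over all genes (7.28 prior degrees of freedom, beside 1 residual), not on this SD alone. In the limma fit with 1 mean per condition its change had an SE of 0.43 and an adjusted p of 0.0233, and 1 of the 8 members passed against 12.5% of all genes tested. Like every other call of this fit, it was lost when genes with low values were kept (adjusted p = 0.343 by limma). With horse serum the direction differed, since Slc5a3 was 0.35 lower (log2) in 2% HS + exosome than in 2% HS, with an adjusted p of 1.00 by limma. The difference between both exosome effects was 2.43 with an SE of 0.66 and did not pass (adjusted p = 0.108 by limma).

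In growing cells Slc5a3 was above every differentiating library without exosomes. The change from 10% FBS was -0.86 in 0.2% FBS and -0.49 in 2% HS, with adjusted p of 0.406 and 0.653 by limma. With exosomes in 0.2% FBS it stood 1.88 above 10% FBS in replicate 1 and 0.55 in replicate 2 (log2). The gap between these replicates, 1.33, was larger than every gap between neighbours in the order of the other Slc5a3 levels.

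Mrps6 changed with exosomes in the same directions as Slc5a3, and in 0.2% FBS by less. Its level was 39.4 FPKM in 0.2% FBS, 76.1 and 68.4 FPKM in 0.2% FBS + exosome replicates 1 and 2, 43.5 FPKM in 10% FBS, 47.5 FPKM in 2% HS and 33.6 FPKM in 2% HS + exosome. With exosomes in 0.2% FBS Mrps6 rose by 0.93 and 0.78 (log2, SE 0.17, adjusted p = 0.0226 by limma), and both libraries lay above the other 4. In 2% HS it was 0.49 lower with exosomes, and the difference between media was 1.34 (SE 0.27, adjusted p = 0.0573 by limma, 0.0367 after the 75th percentiles of the libraries were made equal). Over the 6 libraries the log2 levels of both genes had a Pearson r of 0.91, a description only, as the libraries are common to both and 85 of the 10839 stretches of 75 bases in the Slc5a3 transcript also occur in Mrps6. Of the Mrps6 transcript, 30.1% of such stretches occur in Slc5a3 or Gm49711, so reads near the start cannot be given to 1 gene with certainty.

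The 3 genes whose pattern was most like that of Slc5a3 over the 6 libraries were Dnajb1, a heat shock co-chaperone (r = 0.996), Mtmr4, a phosphoinositide phosphatase (r = 0.995), and Rgs11, a regulator of G protein signalling (r = 0.992). Dnajb1 had 12.5 FPKM in 0.2% FBS, 55.0 FPKM in 0.2% FBS + exosome replicate 1 and 24.4 FPKM in replicate 2. It was 18.9 FPKM in 10% FBS, 13.5 FPKM in 2% HS and 11.02 FPKM in 2% HS + exosome. Genes chosen by this measure share the high libraries of Slc5a3 by the way they were chosen. In all, 114 genes had an r above 0.95 with Slc5a3.

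Slc6a6, the taurine transporter, was far more abundant and was lower with exosomes in both media. It lies at chr6:91684053-91759066 on the plus strand. Its level was 79.5 FPKM in 10% FBS, 139 FPKM in 2% HS, 85.3 FPKM in 2% HS + exosome, 125 FPKM in 0.2% FBS and 91.3 and 87.8 FPKM in 0.2% FBS + exosome replicates 1 and 2. Both differentiation media without exosomes were above the other 4 libraries. The change with exosomes was -0.45 and -0.50 in 0.2% FBS and -0.70 in 2% HS (log2), and 7.67% of background genes had a lower change in 0.2% FBS and 0.829% in 2% HS. Slc6a6 had the smallest unadjusted p of the members in the fit of 1 exosome effect common to both media, with a change of -0.57 (SE 0.15), but its adjusted p by limma was 0.705. That fit called 0.0% of the genes after adjustment, and 6.61% (709 of 10731) had an unadjusted p under 0.05, among them the members Slc6a6 and Akr1b8. Against 10% FBS, Slc6a6 was 0.64 higher in 0.2% FBS and 0.80 higher in 2% HS, with adjusted p of 0.193 and 0.148 by limma. With exosomes it was 0.17 higher than in 10% FBS in 0.2% FBS (adjusted p = 0.792 by limma).

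**Figure D2:**
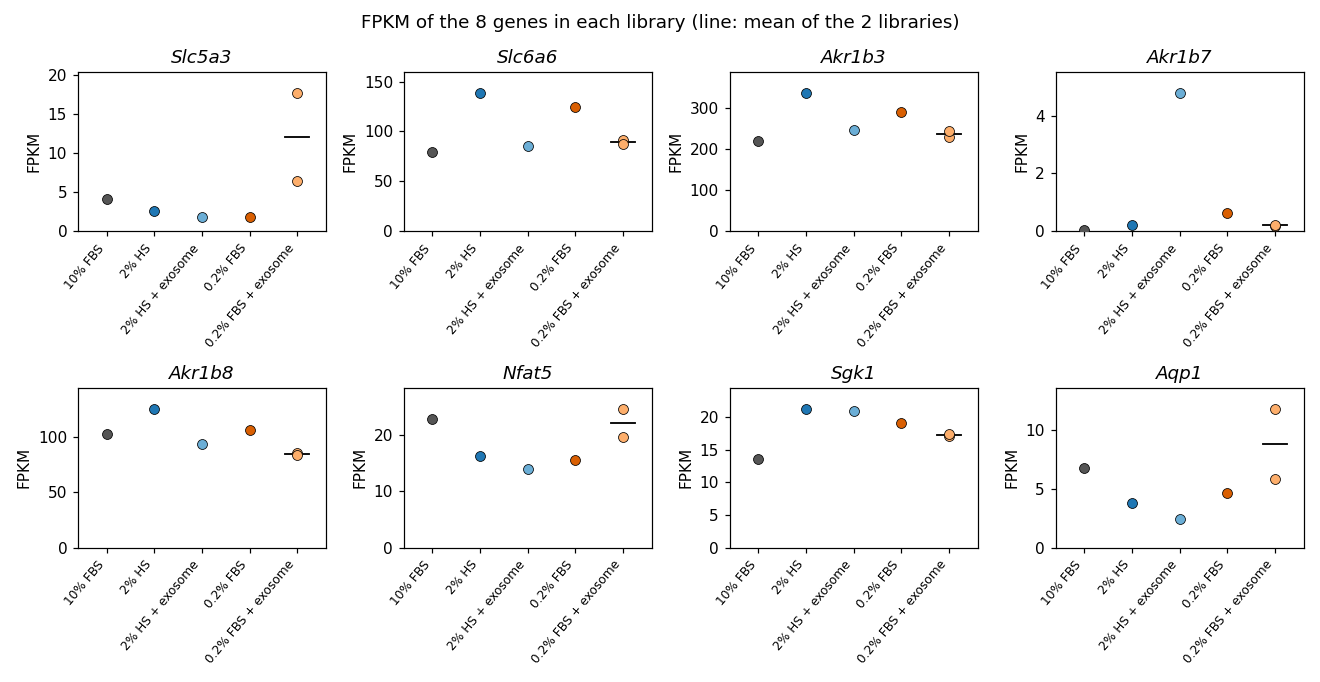
FPKM (vertical axis, from 0) of the 8 genes in the 5 conditions, with 1 point per library and a line at the mean of the 2 libraries of 0.2% FBS + exosome. Slc6a6, Akr1b3 and Akr1b8 had their highest points in 2% HS and their next highest in 0.2% FBS, and Akr1b7 had a single high point of 4.79 FPKM in 2% HS + exosome.

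The aldose reductase genes lie within 120.709 kb of chromosome 6 (chr6:34302434-34423142), with Akr1b10 between Akr1b8 and Akr1b7. All have 10 exons and 948 coding bases. Akr1b3, the mouse aldose reductase proper, shares 73.0% of its aligned coding bases with Akr1b7 and 72.1% with Akr1b8, while Akr1b7 and Akr1b8 share 84.8%. At the scale of a read the members are distinct. Stretches of 75 bases of Akr1b8 match Akr1b10 in 6 of 1284 places, and 5.30% of those of Akr1b7 match the pseudogene Gm13857. Akr1b3 differs, since 80.2% of its stretches (1053 of 1313) recur in Gm12138, Gm38056, Gm6644 or Gm6736, none of which is an entry of the table, so its level is uncertain.

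Akr1b3 was the most abundant member. It stood at 221 FPKM in 10% FBS, 337 FPKM in 2% HS, 246 FPKM in 2% HS + exosome, 292 FPKM in 0.2% FBS and 229 and 244 FPKM in 0.2% FBS + exosome replicates 1 and 2. The order of the libraries began as for Slc6a6, with 2% HS and 0.2% FBS above the rest, and no gap between neighbours among the other 4 libraries exceeded the replicate difference of 0.09 (log2). The gap from 10% FBS to replicate 2, which are not neighbours, was 0.15. The change with exosomes was -0.34 and -0.25 in 0.2% FBS and -0.45 in 2% HS. Neither passed by limma (adjusted p = 0.454 and 1.00). Against 10% FBS it was 0.40 higher in 0.2% FBS and 0.61 higher in 2% HS, also without passing (adjusted p = 0.506 and 0.330 by limma). Over the 6 libraries the log2 levels of Slc6a6 and Akr1b3 had an r of 0.96. The genes most like Akr1b3 were Sin3b, Stim1 and Mapre3 (r = 0.993, 0.984 and 0.979) and those most like Slc6a6 were Slc41a2, Acad10 and Zdhhc5 (r = 0.996, 0.987 and 0.984).

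Akr1b8, which encodes an aldose reductase-like enzyme known from responses to fibroblast growth factor, was lower with exosomes in every library. Its level was 103 FPKM in 10% FBS, 125 FPKM in 2% HS, 93.2 FPKM in 2% HS + exosome, 106 FPKM in 0.2% FBS and 84.9 and 83.1 FPKM in 0.2% FBS + exosome replicates 1 and 2. All 3 libraries with added exosomes were below the other 3, of which 10% FBS holds the exosomes of its own serum. The change with exosomes was -0.32 and -0.35 in 0.2% FBS and -0.42 in 2% HS. The common effect was -0.37 with an SE of 0.15 (adjusted p = 0.705 by limma). Among the genes most like it were Dcun1d1 and Polb (r = 0.986 and 0.976). Akr1b10, its neighbour, stayed between 24.3 and 27.3 FPKM in all 6 libraries.

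Akr1b7, a reductase best known from the adrenal gland and the vas deferens, was below 1 FPKM in every library but 2% HS + exosome. It stood at 0.0485 FPKM in 10% FBS, 0.221 FPKM in 2% HS, 4.79 FPKM in 2% HS + exosome, 0.620 FPKM in 0.2% FBS and 0.189 and 0.226 FPKM in 0.2% FBS + exosome replicates 1 and 2. These levels correspond to an estimated 2, 9, 176, 25, 7 and 8 reads. In horse serum Akr1b7 was 21.6-fold higher with exosomes, a log2(FPKM + 1) change of 2.25 (SE 0.23, adjusted p = 0.0126 by limma), and it ranked 5 of 10731 from the highest. It was the only member past the fold upward in 2% HS, against 0.354% of the background, and no member was past it downward, against 0.298%. By limma 0.0839% of all genes passed in this medium. The result rests on 1 library, without which no comparison in 2% HS remains. Its spread was borrowed from the pair in 0.2% FBS + exosome and from the trend over all genes. As Akr1b7 entered the fit only through this library, the call is no independent support. It was lost with a pseudocount of 0.1 (adjusted p = 0.0925 by limma) and when genes with low values were kept (adjusted p = 0.600 by limma).

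In 0.2% FBS the direction for Akr1b7 was opposite, with log2(FPKM + 1) changes of -0.45 and -0.40. Its FPKM was 0.305 and 0.364 of that of the control, ratios that these changes understate. These levels all lie below 1 FPKM, and with values below 1 FPKM raised to 1 the change was 0. The difference between both exosome effects was -2.67 (SE 0.31, adjusted p = 0.0142 by limma), and Akr1b7 was the only member below the threshold, against 1.16% of all genes. This call turns on the same single library through which Akr1b7 entered the fit and is no independent support either. It was lost when genes with low values were kept (adjusted p = 0.359 by limma). The 3 genes most like it over the 6 libraries were the calcium pump gene Atp2a3, the deubiquitinase gene Otub2 and the ATP-gated channel gene P2rx3 (r = 0.994, 0.994 and 0.994), with 4.48, 5.31 and 8.20 FPKM in 2% HS + exosome, the library that fixes this choice.

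**Figure D3:**
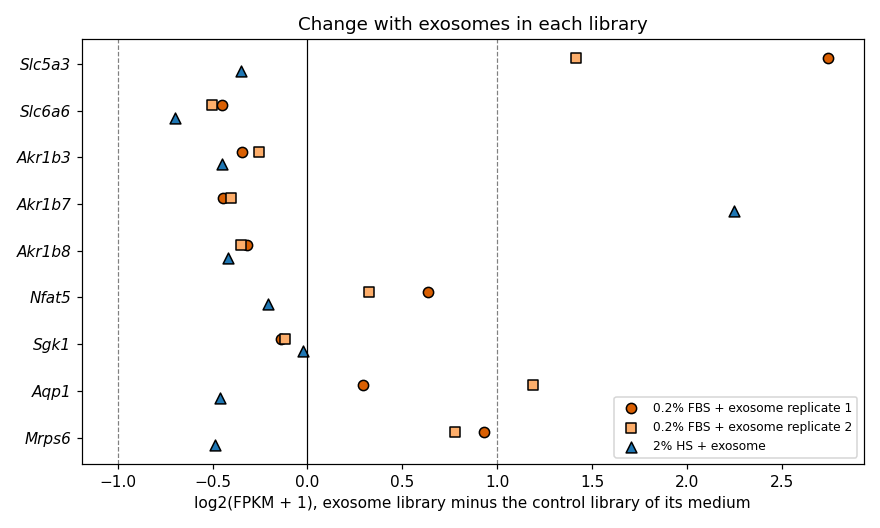
Change of log2(FPKM + 1) with exosomes for each member and for Mrps6, with circles and squares for 0.2% FBS + exosome replicates 1 and 2 and triangles for 2% HS + exosome. Dashed lines mark the fold threshold of 1 and -1. Slc5a3 lies beyond it in both 0.2% FBS + exosome libraries (2.74 and 1.41) and Akr1b7 in 2% HS + exosome (2.25).

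Nfat5, the transcription factor of the tonicity response, was expressed in all libraries and passed no test. It lies at chr8:107293470-107379517 on the plus strand. Its level was 22.8 FPKM in 10% FBS, 16.3 FPKM in 2% HS, 14.0 FPKM in 2% HS + exosome, 15.5 FPKM in 0.2% FBS and 24.6 and 19.7 FPKM in 0.2% FBS + exosome replicates 1 and 2. Both 0.2% FBS + exosome libraries and 10% FBS were above the other 3. The change with exosomes in 0.2% FBS was 0.63 and 0.33 (mean 0.48 ± 0.22, SD, n = 2, adjusted p = 0.113 by limma), and 17.5% of background genes had a higher one. It was -0.21 in 2% HS (adjusted p = 1.00 by limma). No gap between neighbours in the order exceeded the replicate difference of 0.31. The log2 levels of Nfat5 and Slc5a3 had an r of 0.86 over the 6 libraries, below that of 190 genes which had an r above 0.95 with Nfat5, such as Hes1, a Notch target (r = 0.995), Nmt2 (r = 0.994) and Pds5b (r = 0.993). NFAT5 is known to be controlled at the protein level too, which RNA does not show.

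Sgk1, a kinase induced by serum, glucocorticoids and hypertonic stress, differed little with exosomes in either medium. It lies at chr10:21882184-21999903 on the plus strand. Its level was 13.5 FPKM in 10% FBS, 21.2 FPKM in 2% HS, 20.9 FPKM in 2% HS + exosome, 19.0 FPKM in 0.2% FBS and 17.1 and 17.4 FPKM in 0.2% FBS + exosome replicates 1 and 2. Growing cells had the lowest level. The change with exosomes was -0.14 and -0.12 in 0.2% FBS and -0.02 in 2% HS. After scaling to the 75th percentile it was -0.21 and -0.25 in 0.2% FBS, and in 2% HS its sign turned (0.01). Against 10% FBS, Sgk1 was 0.46 higher in 0.2% FBS, 0.62 higher in 2% HS and 0.33 higher in 0.2% FBS + exosome, with adjusted p of 0.233, 0.157 and 0.466 by limma. The genes most like it were Emc3, Pnpla2 and Rnf121 (r = 0.985, 0.983 and 0.981).

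Aqp1 encodes a water channel through which water follows osmotic gradients and lies at chr6:55336432-55348555 on the plus strand. Its level was 6.80 FPKM in 10% FBS, 3.75 FPKM in 2% HS, 2.45 FPKM in 2% HS + exosome, 4.61 FPKM in 0.2% FBS and 5.87 and 11.8 FPKM in 0.2% FBS + exosome replicates 1 and 2. Here replicate 2 was the higher one, unlike for Slc5a3 and Nfat5. The change in 0.2% FBS was 0.29 and 1.19, so Aqp1 was past the fold in replicate 2 only, with a mean of 0.74 ± 0.63 (SD, n = 2, adjusted p = 0.150 by limma). In 2% HS it was -0.46 (adjusted p = 1.00 by limma). No gap between neighbours exceeded the replicate difference of 0.90. Among the genes most like Aqp1 were Gnl1 and Tomm40l (r = 0.996 and 0.994). The markers of endothelial and red cells, which express Aqp1 in the body, were at or near 0 in all 6 libraries, as given above. Of the 11 other aquaporins, Aqp5 alone reached 1 FPKM and is named for that after its values were seen. It had 43.6 FPKM in 0.2% FBS, 85.1 and 75.7 FPKM with exosomes, 103 FPKM in 2% HS, 58.8 FPKM in 2% HS + exosome and 46.8 FPKM in 10% FBS.

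Across the members, the direction of the exosome change fell into a few patterns. Slc6a6, Akr1b3, Akr1b8 and Sgk1 were lower in all 3 exosome libraries than in the control of the same medium, a pattern seen in 15.5% of background genes. Slc5a3, Nfat5 and Aqp1 were higher in both 0.2% FBS + exosome libraries and lower in 2% HS + exosome, as were 33.7% of background genes. After scaling to the same 75th percentile these shares were 18.1% and 24.6%, and Sgk1 left the former pattern. No member was lower past the fold in 0.2% FBS, against 1.61% of the background, though Akr1b7 was with a pseudocount of 0.1. The median change of the members was -0.21 in 0.2% FBS and -0.39 in 2% HS, beside 0.14 and -0.04 over all background genes. After scaling, the median of the members in 0.2% FBS was -0.32 and that over all genes 0.04.

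**Figure D4:**
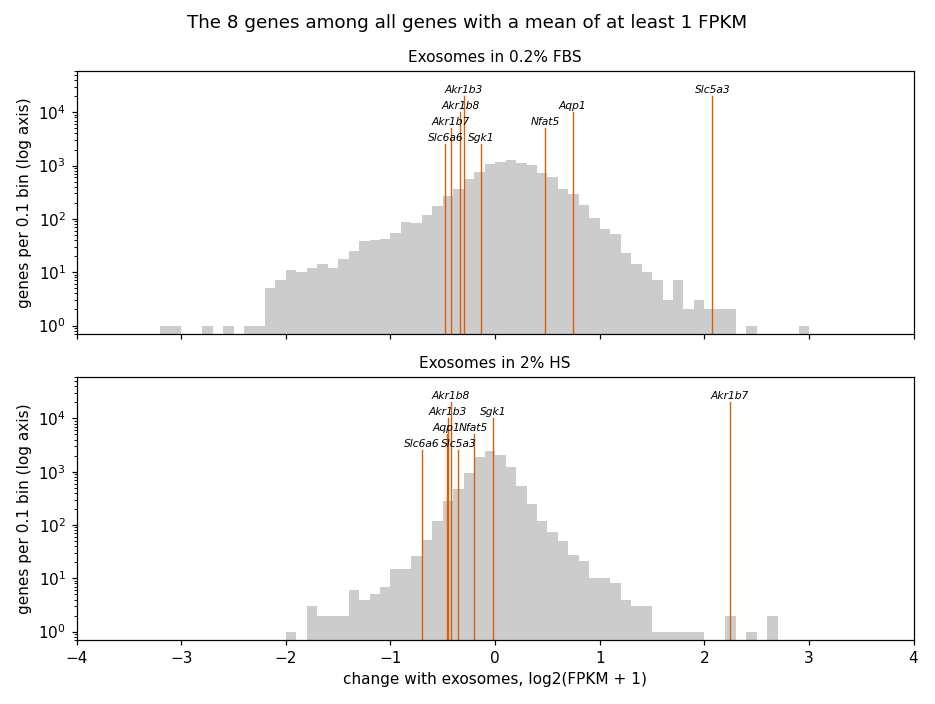
Number of genes per 0.1 bin of the change in log2(FPKM + 1) with exosomes (log vertical axis) among the 10731 background genes, in 0.2% FBS (mean of 2 libraries, top) and 2% HS (bottom). Orange lines mark the 8 genes. Slc5a3 at 2.08 in 0.2% FBS and Akr1b7 at 2.25 in 2% HS lie in the upper tails. Akr1b7 is among the background genes only through its level in 2% HS + exosome, so its place in the lower panel is no independent support.

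The move from 10% FBS to low serum without added exosomes, which for 2% HS also changed the serum species, put no member past the fold. This compares with 2.48% of background genes for 0.2% FBS and 2.31% for 2% HS against 10% FBS. With a pseudocount of 0.1, however, Slc5a3 and Akr1b7 were past it in 0.2% FBS and Akr1b7 in 2% HS. With values below 1 FPKM raised to 1, Slc5a3 was past it in 0.2% FBS. Slc6a6, Akr1b3, Akr1b7, Akr1b8 and Sgk1 were higher than in 10% FBS in both media (31.4% of the background) and Slc5a3, Nfat5 and Aqp1 were lower in both (52.8%). By limma no member had an adjusted p under 0.05, against 0.0186% of all genes in 0.2% FBS and 0.513% in 2% HS. An unadjusted p under 0.05 was found for 4 members in 0.2% FBS (Slc6a6, Akr1b7, Nfat5 and Sgk1), beside 17.7% of all genes, and for 2 in 2% HS (Slc6a6 and Sgk1), beside 16.8%. No member was past the fold in both libraries when 0.2% FBS + exosome was set against 10% FBS (0.214% of the background), and none had an adjusted p under 0.05 there (0.0652% of all genes), while Slc5a3 alone had an unadjusted p under 0.05, beside 11.5% of all genes. These comparisons use libraries in common with the exosome comparisons.

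Other genes of the pathway are given by list. Of 14 listed NFAT5 targets and osmoprotective genes, 9 reached 1 FPKM, 6 of these were higher and 2 lower in both 0.2% FBS + exosome libraries, and 1 was past the fold. Of all background genes 55.2% were higher and 27.5% lower in both libraries, and 0.895% were higher past the fold. Hspa1b, an inducible heat shock protein 70 gene, had 1.897 FPKM in 0.2% FBS, 30.05 FPKM in 0.2% FBS + exosome replicate 1 and 5.39 FPKM in replicate 2 (2.28 ± 1.61, log2, SD, n = 2, adjusted p = 0.0685 by limma, 0.0484 with a pseudocount of 0.1). It had 2.23 FPKM in 10% FBS, 2.99 FPKM in 2% HS and 1.97 FPKM in 2% HS + exosome. Replicate 1 was the higher one for Hspa1b, as for Slc5a3, and the part of a heat shock signal in the Slc5a3 result was not tested. In 2% HS, 8 of the 9 were lower with exosomes, as were 58.7% of background genes, and none was past the fold. The median change of this list was 0.51 in 0.2% FBS and -0.42 in 2% HS. The betaine carrier Slc6a12, another NFAT5 target, was at most 0.0124 FPKM.

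Of 17 listed genes of osmolyte metabolism, 10 reached 1 FPKM. Of these, 7 were higher and 2 lower in both 0.2% FBS + exosome libraries, beside 55.2% and 27.5% of background genes. Sord, the sorbitol dehydrogenase that turns the product of aldose reductase into fructose, was the only one past the fold, beside the same background share of 0.895%. It rose from 10.3 FPKM in 0.2% FBS to 23.1 and 35.4 FPKM with exosomes (1.09 and 1.68, log2, SE 0.24, adjusted p = 0.0143 by limma). It was 21.2 FPKM in 10% FBS, 11.96 FPKM in 2% HS and 12.8 FPKM in 2% HS + exosome. Both libraries of 0.2% FBS with exosomes were thus above every other library. Of 15 genes of cell volume regulation 13 reached 1 FPKM. Of these, 5 were higher and 6 lower in both libraries, beside 55.2% and 27.5% of background genes. None was past the fold, beside 0.895% of background genes higher and 1.61% lower, which with 13 genes is no result about this list.

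Among the further lists no gene was past the fold with exosomes in either medium, which with so few genes is near the background shares (0.895% higher and 1.61% lower in 0.2% FBS, 0.354% and 0.298% in 2% HS) and no result about these lists. They held 7 of 14 other aldo-keto reductases above 1 FPKM, 3 of 5 genes of the SGK family and its substrates, 6 of 8 glucocorticoid-responsive genes and 3 of 4 other NFAT factors. The muscle markers moved with the exosomes of 0.2% FBS as well. Acta1 and Myh3 were lower past the fold in both libraries, Acta1 at 5322 FPKM without exosomes against 2335 and 1610 FPKM, beside 1.61% of background genes, and 6 of the 7 markers were lower in both, beside 27.5%. The other marker, Myf5, was higher in both, at 5.39 FPKM in 0.2% FBS and 10.1 and 12.9 FPKM with exosomes. In 2% HS none of the 7 was past the fold. The part of the muscle markers' change in the values of the 8 genes was not tested, and in RNA from whole cultures fewer cells of a type and less RNA per cell cannot be told apart.

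**Figure D5:**
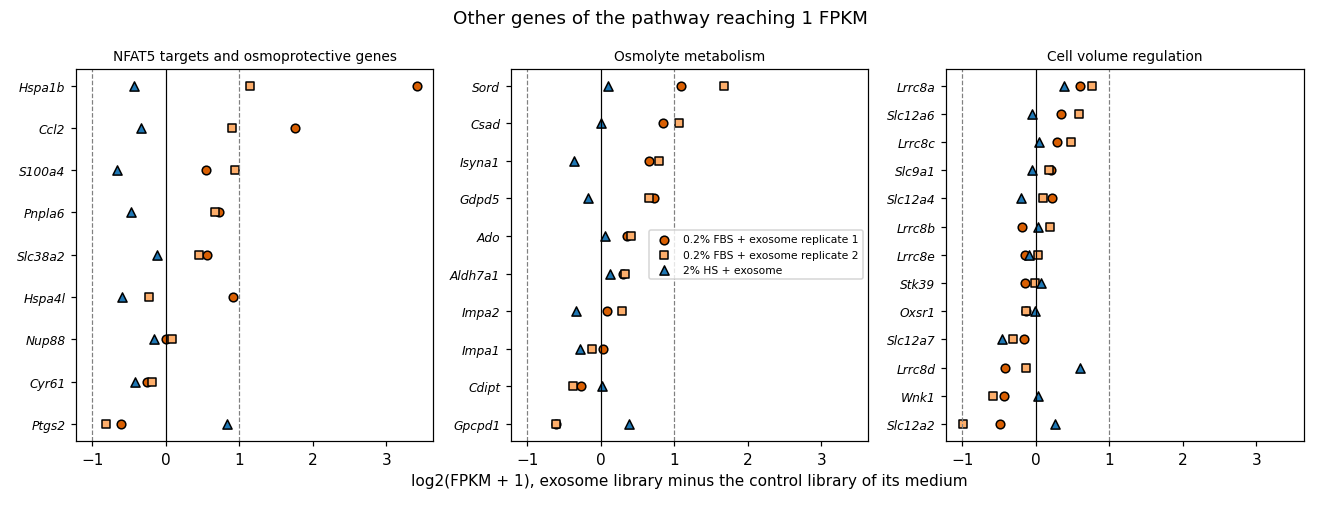
Change of log2(FPKM + 1) with exosomes for the genes of 3 pathway lists that reached 1 FPKM in a library, with circles and squares for 0.2% FBS + exosome replicates 1 and 2 and triangles for 2% HS + exosome. Hspa1b and Sord lie right of the dashed fold line in both 0.2% FBS + exosome libraries.

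Promoter windows of 300 bases (250 before to 50 after a RefSeq start) were found for 6 of the 8 members, 11 windows in all, of which 6 belong to Sgk1. Slc6a6 and Akr1b3 had no window and were not searched. The windows were searched on both strands for the NFAT core TGGAAA, which is also part of many NFAT5 sites, and for the consensus of the tonicity-response element. The core occurs in 21.4% and the consensus in 4.96% of all 32851 windows. Among the members the core was found in 2 windows, both of Sgk1, at -163 on the strand of the gene and at -105 on the opposite strand, so that the printed strand of the gene reads TTTCCA there. The consensus was found in none of the 11. Neither the core nor the consensus is therefore in the Slc5a3 sequence printed above. Sequence outside these windows was not searched, so the genes may hold either elsewhere. The Sgk1 stretches are shown with the core in capitals (RefSeq, GRCm38.p6, plus strand), the former at chr10:21993717-21993742 and the latter at chr10:21882069-21882094.
Sgk1 start at 21993890: ggagattagtTGGAAAaaaaagtgaa
Sgk1 start at 21882184: ttgctttctcTTTCCAtttacctttc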

How the data were processed

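The 6 libraries hold RNA of C2C12 cells. Per the labels and the study's methods, stranded mRNA libraries were read as single-end reads of 75 bases, trimmed with cutadapt 1.9.1, mapped to mm10 with TopHat2 2.1.0 and summarised with Cufflinks. The authors deposited FPKM values, 1 column per library, which are divided by transcript length and depth. The labels and the paper name different RNA kits. Whether the quantification used strand, and with which annotation, is not given in the sources used here.

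Values were compared as log2(FPKM + 1), with the fold threshold of 1 or -1 of the study's methods, over 10731 entries with a mean of at least 1 FPKM. Entries below it include 4500 at 0 in every library. limma 3.58.1 (R 4.3.3) was used with a mean-variance trend and Benjamini-Hochberg adjustment over all 10731. A fit with 1 mean per condition had 1 residual degree of freedom, from both libraries of 0.2% FBS + exosome. The single libraries are thus assumed to vary like that pair. On the 5 differentiating libraries, a fit of 1 exosome effect with a medium term had 2 residual degrees of freedom. limma draws the variance of each gene toward the trend over all genes, here with 7.28 and 4.81 prior degrees of freedom. The SE and p therefore reflect mostly that trend and not the replicate SD of a single gene. The procedures were tested on simulated data. All simulated libraries were given the spread of the 0.2% FBS + exosome pair, so they cannot test whether the single libraries vary like that pair. Alternatives were a pseudocount of 0.1, raising values below 1 to 1, scaling to the 75th percentile, no filter, no trend and leaving out each replicate.

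Depth was estimated from 2442 genes with 1 transcript over 1000 bases, assuming fragments of 200 bases, as the depth that brings the low FPKM values nearest to whole reads. Between 74.5% and 77.6% of these values then came within 0.1 of a whole read, too few to recover counts, so no count test was run and no interval is given for single values. Positions come from GENCODE vM21. Coding identity was computed from its transcripts with biopython 1.88.

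The named genes are all 8 members, Mrps6, every listed gene past the fold with exosomes in 0.2% FBS (both libraries) or 2% HS that reaches 1 FPKM, and the 3 genes most correlated with a member, some of which are not reported here. Akr1b10, Aqp5, Slc6a12 and cell type markers were named outside this rule, after their values were seen. The members, lists and tests were chosen with earlier results of these data known, and no pattern is independent support for them.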

Additional observations from a re-analysis of the deposited data

Results flagged for a closer look

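The effect of exosomes in 0.2% FBS differed from that in 2% HS by a test of the difference for Akr1b7 (-2.67 on the log2 scale, SE 0.31, adjusted p = 0.0142 by limma). It was lower in both libraries of 0.2% FBS + exosome, at levels below 1 FPKM, and higher in 2% HS + exosome. Akr1b7 entered the fit only through the library of 2% HS + exosome, so the call is no independent support, and with no filter on low values it was lost (adjusted p = 0.359 by limma).

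Slc5a3, Nfat5, Aqp1, Mrps6 and Hspa1b had changes of opposite sign in the 2 media, higher in both libraries of 0.2% FBS + exosome and lower in 2% HS + exosome. The change in 2% HS sets 1 library against 1. For Slc5a3, Nfat5 and Aqp1 it was -0.35, -0.21 and -0.46, smaller than their replicate differences in 0.2% FBS + exosome (1.33, 0.31 and 0.90). For Mrps6 it was -0.49 beside a replicate SD of 0.11, and for Hspa1b -0.43 beside 1.61. The differences between the effects were 2.43 for Slc5a3, 0.69 for Nfat5, 1.202 for Aqp1, 1.34 for Mrps6 and 2.71 for Hspa1b, with adjusted p by limma of 0.108, 0.231, 0.229, 0.0573 and 0.227. None of these 5 passed. The pattern of signs was shared by 33.7% of all background genes.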

How the results depend on the processing

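With a pseudocount of 0.1 the members past the fold were 2 with exosomes in 0.2% FBS (Slc5a3 and Akr1b7), 2 for 0.2% FBS against 10% FBS (Slc5a3 and Akr1b7) and 1 for 2% HS against 10% FBS (Akr1b7). With values below 1 FPKM raised to 1 the count for 0.2% FBS against 10% FBS was 1 (Slc5a3). Without replicate 1 or 2 of 0.2% FBS + exosome the count with exosomes in 0.2% FBS was 1 to 2, Aqp1 being added without replicate 1, and the count against 10% FBS was 0 to 1, Slc5a3 being added without replicate 2. With no filter on low values 16450 genes were tested and no gene had an adjusted p under 0.05 by limma in any comparison, where 3121 had an unadjusted p under 0.05 for exosomes in 0.2% FBS. The members' counts there were 0 for exosomes in 0.2% FBS and 0 for the difference between media. The cause was not tested. Leaving out a replicate leaves no residual degree of freedom in the fit with 1 mean per condition, so that was not run. Genes called for exosomes in 0.2% FBS numbered 1344, and 1033 to 1658 under the other alternatives. For the difference between media they numbered 125, and 45 without trend and 377 with scaling. With exosomes in 2% HS they were 9, and 22 with scaling. Against 10% FBS they were 2 for 0.2% FBS (45 with a pseudocount of 0.1, 310 with scaling), 55 for 2% HS (205 with scaling, 1 without trend) and 7 for 0.2% FBS + exosome (38 with scaling, 2 without trend).

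For the members, Mrps6, Hspa1b and Sord, 137 of 165 log2 differences stayed within 1 replicate SD under an alternative that kept all libraries and 28 moved by more. Leaving out a replicate of 0.2% FBS + exosome put Slc5a3 at 1.41 to 2.74 with exosomes in 0.2% FBS. No called value changed sign, and 3 uncalled ones did: Sgk1 in 2% HS with scaling (0.01), and Nfat5 (0.11) and Aqp1 (-0.18) in 0.2% FBS + exosome against 10% FBS without replicate 2. No paired analysis was possible because the groups compared share fewer than 2 replicate numbers. At 1 library in 4 of the 5 conditions, small changes cannot be resolved.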
